A study of Mus musculus with 12 samples.

Results

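The genes of the platelet-derived growth factor (PDGF) family were followed across 4 stromal populations sorted from mouse bone and bone marrow. The set held 7 genes, matched by mouse symbol to 1 Ensembl identifier each, out of 49585 identifiers in the count files: the receptor genes Pdgfra and Pdgfrb, the receptor-like gene Pdgfrl, and the ligand genes Pdgfa, Pdgfb, Pdgfc and Pdgfd. All 7 were among the 18648 genes that passed the filter on low counts. Every population came from untreated wild-type C57BL/6 male mice aged 8 to 10 weeks, and was gated as CD45-Ter119-CD31-, a gate against markers of blood, erythroid and endothelial cells. Itga8+ MSCs were Itga8+Alcam+Sca-1- cells. Itga8- BLCs were the Itga8-Alcam+Sca-1- cells, which the labels call osteoblasts. Sca-1+ MSCs were Alcam-Sca-1+ cells, and CD51+CD140a+ MSCs were gated on integrin αV and on CD140a. There were 3 libraries of 2000 cells for each population. The first 3 populations were released with collagenase from flushed bone fragments and the CD51+CD140a+ MSCs with Accumax from the flushed marrow, so population, site and enzyme cannot be told apart in any comparison with CD51+CD140a+ MSCs. No source used here says whether the libraries of a population came from separate mice, and the p-values then measure only the spread between these samples, which may be technical. CD140a is the protein of Pdgfra. Its level in CD51+CD140a+ MSCs is therefore a check of the sort and not a finding.

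PDGFs are dimeric growth factors that drive division and migration of mesenchymal cells through a pair of receptor tyrosine kinases. PDGF receptor α binds PDGF-A, PDGF-B and PDGF-C chains, and PDGF receptor β binds mainly PDGF-B and PDGF-D. PDGF-A and PDGF-B are cut to their active form inside the cell by furin-type convertases. PDGF-C and PDGF-D leave the cell in a latent form with a CUB domain, which extracellular proteases remove: tissue plasminogen activator for PDGF-C, urokinase and matriptase for PDGF-D. In adult marrow, receptor α and receptor β are widely used to mark stromal progenitors and perivascular cells, while PDGF-B is known mainly from endothelium and platelets.

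In GRCm38 (GENCODE M21), Pdgfra was annotated at chr5:75152292-75198215, Pdgfa at chr5:138976014-138997370 on the minus strand, Pdgfrl at chr8:40926212-40990785, Pdgfb at chr15:79995874-80014977 on the minus strand, Pdgfc at chr3:81036416-81214040 and Pdgfd at chr9:6168584-6378850. Where no strand is given the gene is on the plus strand. The library kit does not mark strand, and reads from antisense transcripts cannot be told apart from those of the gene itself where exons overlap. This touched 26.1% of the exon bases of Pdgfa (6330403L08Rik), 6.21% of those of Pdgfra (Gm42802 and Gm42803) and 2.89% of those of Pdgfc (Gm16000).

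The 250 bases before the start site are shown for Pdgfra, the sort marker gene, and for Pdgfc and Pdgfd, the 2 latent ligands, whose order of populations differed. They are RefSeq sequences on GRCm38.p6, all on the plus strand, at chr5:75152001-75152250, chr3:81036166-81036415 and chr9:6168236-6168485. Capitals mark the TATA box (TATAAA), the CCAAT box (CCAAT) and the GC box (GGGCGG), searched on both strands.
Pdgfra: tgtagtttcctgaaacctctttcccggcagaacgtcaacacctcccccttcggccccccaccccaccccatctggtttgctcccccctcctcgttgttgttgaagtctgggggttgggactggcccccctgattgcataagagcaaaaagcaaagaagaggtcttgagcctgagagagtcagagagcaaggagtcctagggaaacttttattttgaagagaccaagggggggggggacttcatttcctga
Pdgfc: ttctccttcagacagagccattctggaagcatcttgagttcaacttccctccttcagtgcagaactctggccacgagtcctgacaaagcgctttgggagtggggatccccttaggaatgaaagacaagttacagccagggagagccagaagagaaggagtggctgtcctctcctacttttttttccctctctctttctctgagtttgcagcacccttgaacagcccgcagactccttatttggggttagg
Pdgfd: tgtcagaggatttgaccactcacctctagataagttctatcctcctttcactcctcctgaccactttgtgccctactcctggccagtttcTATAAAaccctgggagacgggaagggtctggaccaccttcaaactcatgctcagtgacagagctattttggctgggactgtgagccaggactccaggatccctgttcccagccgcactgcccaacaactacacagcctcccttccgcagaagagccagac
The TATA box stood once in the window of Pdgfd, and none of the 3 motifs was in those of Pdgfra and Pdgfc. Over 32841 windows of the same length, the TATA box was in 12.4%, the CCAAT box in 33.9% and the GC box in 32.7%. The 3 windows were low in CpG, with 4, 3 and 3 CpG dinucleotides for Pdgfra, Pdgfc and Pdgfd. Their observed to expected ratios of 0.216, 0.187 and 0.176 lay between the lower quartile of all windows, 0.167, and their median, 0.374. This did not hold for the whole family. The 2 windows of Pdgfa, not shown, held 19 and 28 CpG dinucleotides, with ratios of 0.819 and 0.871 and with 1 and 2 GC boxes. No window was available for Pdgfrb, Pdgfrl or Pdgfb.

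Levels are given as CPM, the count scaled to the size of its library by TMM, and comparisons between genes use TPM, which also divides by exon length. A gene was called different where edgeR's quasi-likelihood test gave an FDR (Benjamini-Hochberg, over all 18648 genes) under 0.1 and the fold change was above 2. Log2 fold changes are the first population named minus the second, ± SE. The libraries held 17580677 to 31332475 counts, so that 3 counts, taken as the floor, stood for 0.0820 to 0.180 CPM. In bulk samples, fewer cells of a type and less RNA per cell cannot be told apart. Of the sort marker genes, Itga8 was at 35.2 to 199 CPM in Itga8+ MSCs against 0.398 to 4.17 CPM in Itga8- BLCs, Ly6a (Sca-1) at 611 to 659 CPM in Sca-1+ MSCs against at most 35.7 CPM elsewhere, and Alcam at 1.29 to 5.82 CPM in the 2 Alcam+ populations against at most 0.221 CPM in the others. Itga8 was also at 53.1 to 82.9 CPM in CD51+CD140a+ MSCs. Itgav, the gene of CD51, was at 121 to 195 CPM in CD51+CD140a+ MSCs, 126 to 150 CPM in the Sca-1+ cells and 12.7 to 118 CPM in the Alcam+ populations, and was called in none of the 6 comparisons. The libraries of Itga8+ MSCs and of Itga8- BLCs differed more among themselves than the others. The trend with exon length was taken on log2(CPM + 1) minus each gene's mean over the 12 libraries. This relative level fell by 0.484 per doubling of length in Itga8+ replicate 2 and by 0.39 in Itga8- replicate 3. Slopes were -0.184 to 0.204 in the remaining 10. Mitochondrial genes held 0.546% and 0.359% of the counts in those 2 replicates, against 0.0570% to 0.0996% in the remaining 10. Blood transcripts were present in every sort: 12 myeloid and lymphoid genes summed to 1987 to 10400 CPM in Itga8+ MSCs and 3612 to 5538 CPM in Itga8- BLCs, against 812 to 1629 CPM in the other populations, and 7 erythroid genes to 1598 CPM in Itga8+ replicate 2 and 125 to 434 CPM in the remaining 11 libraries. Their part in the results was not tested. Cartilage genes summed to 16020 to 125000 CPM in Itga8+ MSCs and Itga8- BLCs and to at most 9895 CPM in the others. By their means, Comp went the other way for Sca-1+ MSCs, at 7985 CPM there against 7568 CPM in Itga8+ MSCs and 4620 CPM in Itga8- BLCs. The other listed cartilage genes were higher in both Alcam+ populations.

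**Figure D1:**
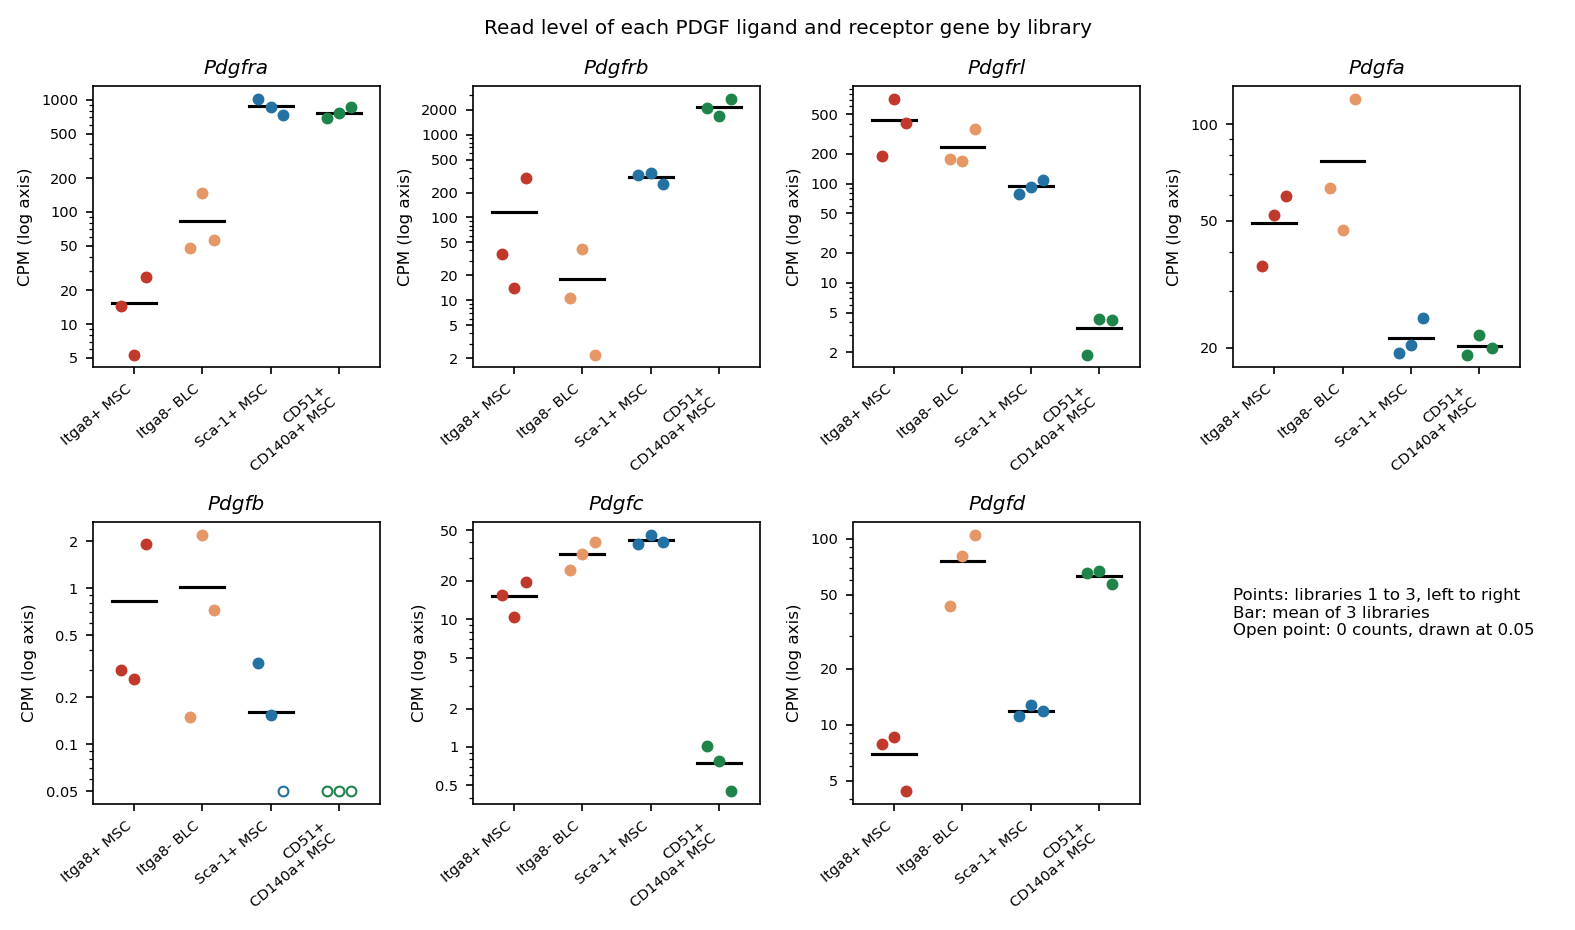
CPM of each PDGF family gene (log axis, scale differing by panel) in the 3 libraries of each of the 4 populations. Points are libraries, bars are means and open points are libraries with 0 counts. By their means Pdgfrb and Pdgfra were highest in the Sca-1+ and CD51+CD140a+ MSCs, and Pdgfc was lowest in CD51+CD140a+ MSCs.

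Both kinase receptor genes were far lower in Itga8- BLCs than in the Sca-1+ or the CD51+CD140a+ cells, and Pdgfra was lowest in Itga8+ MSCs. Pdgfra stood at 14.4, 5.35 and 26.5 CPM in the 3 libraries of Itga8+ MSCs and at 47.6, 148 and 55.6 CPM in those of Itga8- BLCs. It stood at 1019, 869 and 734 CPM in Sca-1+ cells and at 682, 754 and 867 CPM in CD51+CD140a+ MSCs. The libraries of the last 2 populations overlapped, and every other pair of populations was separate. Sca-1+ MSCs were not sorted on CD140a, and their mean was 874 ± 143 CPM (SD, n = 3) against 767 ± 93.4 CPM in the cells that were. The log2 difference between these was 0.19 with a 95% interval of -0.95 to 1.32, and no difference was shown (edgeR FDR 0.893). Pdgfra was 56.7-fold lower by the ratio of means in the Itga8+ cells than in the Sca-1+ cells (log2 fold change -5.83 ± 0.64, edgeR FDR 0.000193). It was 10.4-fold lower in Itga8- BLCs than in Sca-1+ MSCs (-3.38 ± 0.57, edgeR FDR 0.00173). Against the CD51+CD140a+ MSCs, where the sort chose on its protein, the log2 fold changes were -5.64 for Itga8+ MSCs and -3.20 for Itga8- BLCs. Without Itga8+ replicate 3 the values of Itga8+ MSCs became -6.49 over Sca-1+ and -6.27 over CD51+CD140a+ MSCs, and without Itga8- replicate 2 those of Itga8- BLCs became -4.13 and -3.90, all still called.

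Within the Alcam+Sca-1- cells, Pdgfra was 5.43-fold lower in the Itga8+ fraction than in the Itga8- fraction (-2.44 ± 0.55, edgeR FDR 0.0395). The call was lost in a fit of these 2 populations alone (edgeR FDR 0.249), with a replicate block (FDR 0.12), without Itga8+ replicate 1 (FDR 0.133) and without Itga8- replicate 2 (FDR 0.135), where the log2 fold change was -1.72. Without Itga8+ replicate 3 it was -3.07 (FDR 0.0197).

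Pdgfrb, at chr18:61045150-61085061 on the plus strand, had its highest level in CD51+CD140a+ MSCs, at 2066, 1672 and 2703 CPM, and stood at 326, 343 and 254 CPM in Sca-1+ MSCs. It stood at 36.3, 14.2 and 297 CPM in Itga8+ MSCs and at 10.7, 41.4 and 2.22 CPM in Itga8- BLCs. Replicate 3 of the Itga8+ MSCs thus reached the level of the Sca-1+ libraries, while the other two overlapped with the Itga8- BLCs. Against CD51+CD140a+ MSCs the mean was 119-fold lower in Itga8- BLCs (-6.89 ± 1.28, edgeR FDR 0.00186) and 18.6-fold lower in Itga8+ MSCs (-4.21 ± 1.13, edgeR FDR 0.0157). Pdgfrb was also lower in Itga8- BLCs than in Sca-1+ MSCs (-4.08 ± 1.13, edgeR FDR 0.0239). Single libraries moved these values: without Itga8+ replicate 3 the difference of Itga8+ from CD51+CD140a+ MSCs was -6.40, and without Itga8- replicate 2 those of Itga8- BLCs were -8.37 and, from Sca-1+ MSCs, -5.60, all still called. Each Sca-1+ library (254 to 343 CPM) was below each CD51+CD140a+ library (1672 to 2703 CPM), a 6.99-fold difference by the means. It was called narrowly (-2.80 ± 1.06, edgeR FDR 0.0978). The call was lost when any 1 library of either population was left out (FDR 0.139 to 0.253). The fit took 1 spread per gene from all 12 libraries, among them the Alcam+ libraries at 2.22 to 297 CPM. The SE and FDR of this pair therefore do not reflect its own spread alone.

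Itga8+ MSCs were not shown to differ from Itga8- BLCs in Pdgfrb (2.67 ± 1.06, 95% interval 0.37 to 4.98, edgeR FDR 0.305) or from Sca-1+ MSCs (-1.41 ± 1.01, 95% interval -3.61 to 0.79, edgeR FDR 0.345). The former was called by DESeq2 (2.70, FDR 0.0723), and in edgeR it was 0.49 without Itga8+ replicate 3 and 4.17 without Itga8- replicate 2, neither called. Without Itga8+ replicate 3 the latter became -3.64 and passed the test (edgeR FDR 0.0218). Pericytes are known for Pdgfrb, and the summed level of 10 pericyte and smooth muscle genes was 184 to 596 CPM in Itga8+ MSCs, 132 to 597 CPM in Itga8- BLCs, 169 to 322 CPM in Sca-1+ cells and 254 to 298 CPM in the CD51+CD140a+ cells. Within both Alcam+ populations the library with the most Pdgfrb also had the highest sum, of which Cspg4 alone made 448 CPM in Itga8+ replicate 3 and 511 CPM in Itga8- replicate 2. The other genes of the list did not all follow: in Itga8+ MSCs Rgs5 was highest in replicate 1 (26.1 CPM) and Acta2 in replicate 2 (242 CPM). In CD51+CD140a+ MSCs Cspg4 was at most 5.12 CPM, whereas Abcc9 was at 85.2 to 112 CPM and Notch3 at 61.7 to 168 CPM in CD51+CD140a+ MSCs, against at most 13.9 and 3.61 CPM elsewhere. The part of such cells in the level of Pdgfrb was not tested.

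The balance of the 2 kinase receptors divided the populations in another way than their levels did. Per exon length, Pdgfra made up 17.9%, 17.1% and 4.65% of the summed receptor TPM in Itga8+ MSCs and 15.3%, 19.8% and 14.9% in CD51+CD140a+ MSCs. Its share was 70.8%, 66.2% and 93.2% in Itga8- BLCs and 63.1%, 58.1% and 61.3% in Sca-1+ MSCs. Pdgfrb was thus the higher gene in all 6 libraries of the former pair and Pdgfra in all 6 of the latter. The mean log2 ratio of Pdgfra to Pdgfrb was -2.94 ± 1.23 (SD, n = 3) in Itga8+ MSCs, 2.00 ± 1.53 in Itga8- BLCs, 0.64 ± 0.15 in Sca-1+ cells and -2.34 ± 0.27 in the CD51+CD140a+ cells. The populations differed in this ratio (exact two-sided permutation test of the variance ratio over 369600 assignments of the libraries, p = 0.000649), which does not depend on the scaling between libraries. The sort on CD140a bears on this ratio in CD51+CD140a+ MSCs. No pair of populations was tested, since 3 libraries against 3 cannot go below p = 0.1 in a permutation test. The summed receptor level was 1881 ± 384 TPM in CD51+CD140a+ MSCs and 36.4 ± 32.3 TPM in Itga8- BLCs.

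**Figure D2:**
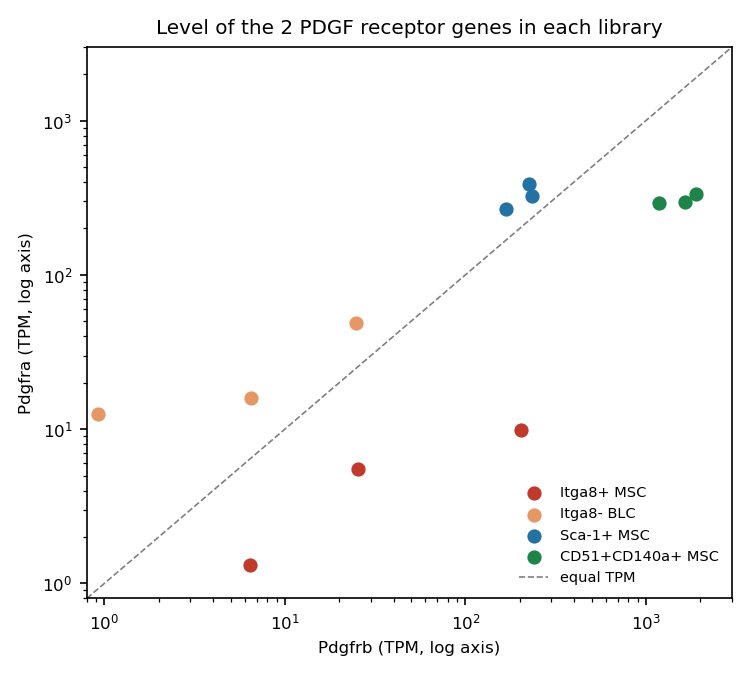
Pdgfra against Pdgfrb in TPM (both log axes), 1 point per library, with the dashed line at equal levels. All libraries of Itga8- BLCs and Sca-1+ MSCs lie above the line, and all libraries of Itga8+ MSCs and CD51+CD140a+ MSCs lie below it.

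Pdgfrl, which codes for a secreted protein that resembles the receptors' extracellular part and lacks a kinase, was highest in Itga8+ MSCs and lowest in CD51+CD140a+ MSCs by its means. It stood at 189, 717 and 406 CPM in Itga8+ MSCs, 177, 167 and 355 CPM in Itga8- BLCs, 79.5, 93.4 and 109 CPM in Sca-1+ cells and 1.89, 4.30 and 4.22 CPM in the CD51+CD140a+ cells. The 2 Alcam+ populations overlapped, and each lay above Sca-1+ MSCs, which lay above CD51+CD140a+ MSCs. Compared with CD51+CD140a+ MSCs the ratio of means was 126-fold in Itga8+ MSCs (6.98 ± 0.62, edgeR FDR 1.14e-05), 67.2-fold in Itga8- BLCs (6.07 ± 0.60, edgeR FDR 2.24e-05) and 27.1-fold in Sca-1+ MSCs (4.76 ± 0.56, edgeR FDR 9.35e-05). Itga8+ MSCs exceeded Sca-1+ MSCs 4.66-fold (2.22 ± 0.50, edgeR FDR 0.0114). The difference between Itga8- BLCs and Sca-1+ MSCs was smaller (1.31 ± 0.49, edgeR FDR 0.0741) and its call was lost when Itga8- replicate 1 or 3 or any 1 of the Sca-1+ libraries was left out (FDR 0.103 to 0.259). The Itga8+ MSCs were not shown to differ from the Itga8- BLCs (0.91, 95% interval -0.14 to 1.96, edgeR FDR 0.506). Tendon genes, 7 in all, had sums of 14040 to 29000 CPM in Itga8+ MSCs, 5031 to 13880 CPM in Itga8- BLCs, 6484 to 9568 CPM in Sca-1+ cells and 154 to 291 CPM in the CD51+CD140a+ cells. Both Pdgfrl and this sum were highest in Itga8+ MSCs and lowest in CD51+CD140a+ MSCs. Between Itga8- BLCs and Sca-1+ MSCs the means of Scx, Tnmd, Mkx, Kera, Thbs4 and Fmod ran against that of Pdgfrl, and only Col11a1 was higher in the BLCs. Cartilage genes, 7 in all, had sums in the order of Pdgfrl. These were 25720 to 125000 CPM in Itga8+ MSCs, 16020 to 77690 CPM in Itga8- BLCs, 9280 to 9895 CPM in Sca-1+ cells and 595 to 1467 CPM in the CD51+CD140a+ cells. Not all of these genes followed: by their means Comp was highest in Sca-1+ MSCs, and Acan, Sox9 and Matn1 in Itga8- BLCs. The part of tendon or cartilage cells in the level of Pdgfrl was not tested.

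The ligand genes were expressed at far lower levels than the receptors in Sca-1+ and CD51+CD140a+ MSCs, and each population had its own leading ligand or ligands. Their summed level was 70.8 ± 20.2 TPM in Itga8+ MSCs, 156 ± 25.5 TPM in Itga8- BLCs, 70.2 ± 3.57 TPM in Sca-1+ cells and 107 ± 11.7 TPM in the CD51+CD140a+ cells. Pdgfa took 67.2% to 77.6% of it in Itga8+ MSCs. Pdgfd took 73.5% to 76.7% in CD51+CD140a+ MSCs. In the Sca-1+ cells Pdgfc (40.6% to 45.7%) and Pdgfa (33.4% to 40.3%) were the main ligands, and in Itga8- BLCs Pdgfa (31.5% to 52.1%) and Pdgfd (35.4% to 54.0%). Summed receptor TPM exceeded summed ligand TPM by 6.08-fold to 9.26-fold in Sca-1+ MSCs and by 13.4-fold to 23.6-fold in CD51+CD140a+ MSCs. In Itga8- BLCs the receptor to ligand ratio was 0.0747 to 0.469, below 1 in all 3 libraries, and in Itga8+ MSCs it was 0.47, 0.145 and 2.28. These ratios are of transcripts and are descriptions without a test.

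**Figure D3:**
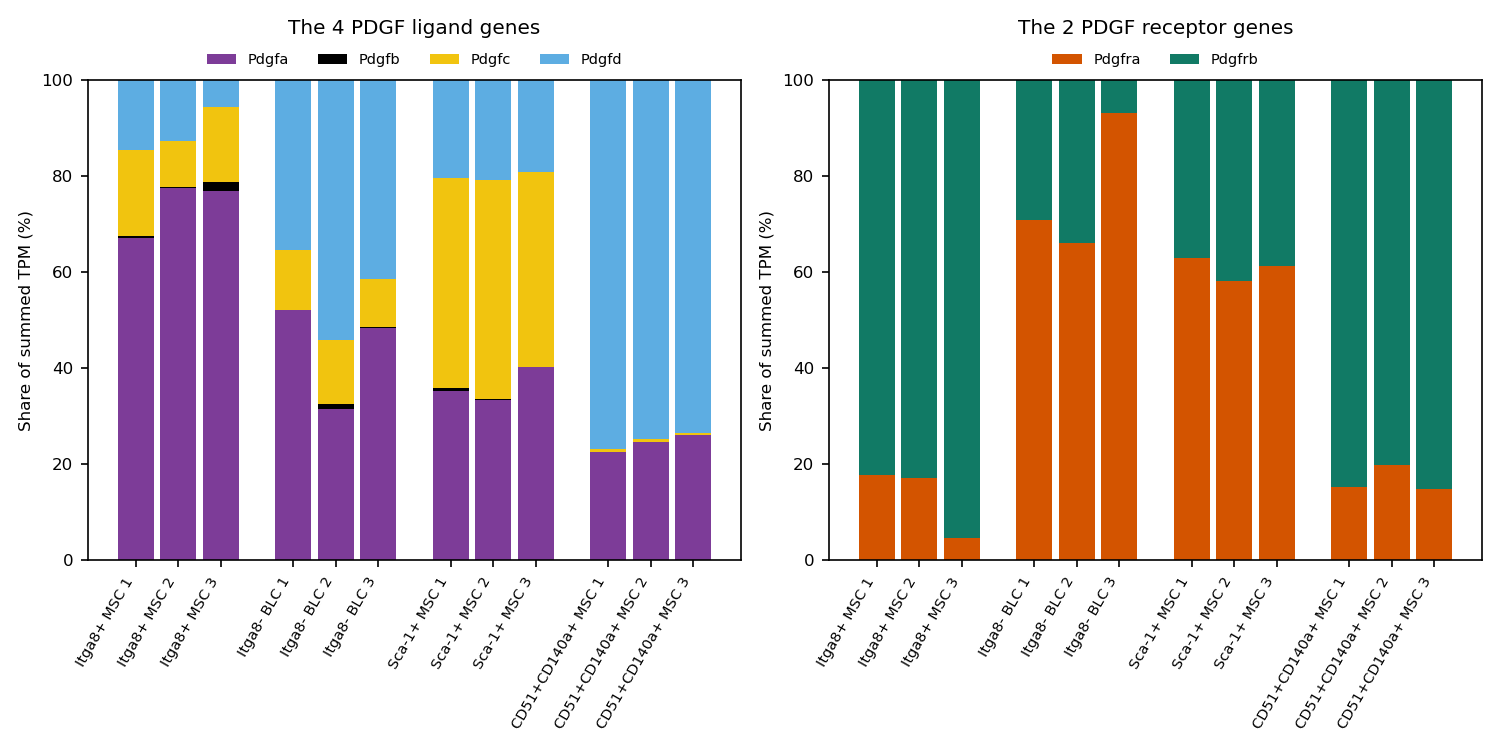
Share of the summed TPM of the 4 ligand genes (left) and of the 2 kinase receptor genes (right) held by each gene, 1 bar per library. Pdgfa fills most of the ligand bar in Itga8+ MSCs and Pdgfd in CD51+CD140a+ MSCs. Pdgfb holds at most 1.84% of any bar.

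Pdgfa, the gene of the PDGF-A chain, was higher in the 2 Alcam+ populations. It stood at 36.0, 52.1 and 59.8 CPM in Itga8+ MSCs, 63.3, 46.8 and 120 CPM in Itga8- BLCs, 19.2, 20.4 and 24.7 CPM in Sca-1+ cells and 19.0, 21.9 and 20.0 CPM in the CD51+CD140a+ cells. Every library of the former pair lay above every library of the latter. Itga8- BLCs exceeded Sca-1+ MSCs by 1.84 ± 0.36 (log2, edgeR FDR 0.00409) and CD51+CD140a+ MSCs by 1.92 ± 0.36 (edgeR FDR 0.00187). Itga8+ MSCs exceeded CD51+CD140a+ MSCs by 1.28 ± 0.35 (edgeR FDR 0.0178) and Sca-1+ MSCs by 1.20 ± 0.35 (edgeR FDR 0.039). The last call was lost without Itga8+ replicate 3, where the log2 fold change fell under 1 (0.99), and without Sca-1+ replicate 1 or 2 (FDR 0.129 and 0.126). Neither Itga8+ MSCs against Itga8- BLCs (-0.64, 95% interval -1.40 to 0.12) nor Sca-1+ MSCs against CD51+CD140a+ MSCs (0.08, 95% interval -0.68 to 0.84) showed a difference. The antisense gene 6330403L08Rik had the same order, at 6.18 to 7.64 CPM, 4.40 to 10.9 CPM, 2.76 to 3.21 CPM and 1.61 to 2.78 CPM in the 4 populations.

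Pdgfb was the lowest of the ligand genes, with 0 to 12 counts in 10 of the 12 libraries. Its counts were 6, 5 and 33 in Itga8+ MSCs, 3, 47 and 12 in Itga8- BLCs, 6, 3 and 0 in Sca-1+ MSCs and 0 in each of the 3 libraries of CD51+CD140a+ MSCs. With the floor of 3 counts per library in place of 0, its mean was at least 9.31-fold higher in Itga8+ MSCs (edgeR FDR 0.0167) and at least 11.5-fold higher in Itga8- BLCs (edgeR FDR 0.0133) than in the CD51+CD140a+ cells. Only libraries of the 2 Alcam+ populations reached the 0.5 CPM of the filter. Pdgfb was thus tested only because it was higher there, and these FDRs are given as descriptions. The means in the Alcam+ populations came mainly from Itga8+ replicate 3 and Itga8- replicate 2, without which the bounds were 3.15-fold and 4.92-fold. Endothelial genes, 10 in all, summed to 19.0 CPM and 37.7 CPM in these 2 libraries, against 25.2 to 48.0 CPM in the other libraries of their populations and 81.1 to 118 CPM in Sca-1+ MSCs, where Tek alone was at 56.2 to 93.3 CPM. Megakaryocyte and platelet genes summed to 49.2 CPM and 40.4 CPM in them and to 15.9 to 44.0 CPM in the other 10. Their part in the counts of Pdgfb was not tested.

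The genes of the latent ligands had different orders of populations, with Pdgfc lowest and Pdgfd high in CD51+CD140a+ MSCs. Pdgfc, the gene of PDGF-C, stood at 15.6, 10.4 and 19.6 CPM in Itga8+ MSCs, 24.5, 32.3 and 40.2 CPM in Itga8- BLCs, 39.0, 45.5 and 40.6 CPM in Sca-1+ cells and 1.01, 0.774 and 0.451 CPM in CD51+CD140a+ MSCs. The last population was below all others by a wide gap. Its mean was 55.9-fold below that of Sca-1+ MSCs (5.79 ± 0.43, edgeR FDR 3.41e-06), 43.4-fold below Itga8- BLCs (5.42 ± 0.42, edgeR FDR 4.53e-06) and 20.4-fold below Itga8+ MSCs (4.34 ± 0.40, edgeR FDR 1.51e-05). Among the populations from bone, Itga8+ MSCs were 2.74-fold below Sca-1+ MSCs (-1.45 ± 0.35, edgeR FDR 0.0161). They also lay below Itga8- BLCs without overlap of libraries, but the difference was not called (-1.09 ± 0.35, edgeR FDR 0.162), while DESeq2 called it (FDR 0.0279). Itga8- BLCs and Sca-1+ MSCs overlapped (-0.37, 95% interval -1.11 to 0.38). The antisense Gm16000 was at 0.571 to 2.49 CPM in the populations from bone and at most 0.0322 CPM in CD51+CD140a+ MSCs.

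Pdgfd, the gene of PDGF-D, was high in Itga8- BLCs (43.5, 81.1 and 104 CPM) and CD51+CD140a+ MSCs (65.5, 67.0 and 56.9 CPM), and low in Sca-1+ MSCs (11.1, 12.8 and 11.9 CPM) and Itga8+ MSCs (7.87, 8.57 and 4.39 CPM). The high pair overlapped (0.27, 95% interval -0.47 to 1.02), with a direction that turned under other settings. Both low populations were separate from both high ones. It was 11.0-fold lower in Itga8+ MSCs than in Itga8- BLCs (-3.46 ± 0.38, edgeR FDR 0.000604), the lowest FDR of the 7 members in that comparison. It was 9.09-fold lower in the Itga8+ cells than in the CD51+CD140a+ cells (-3.18 ± 0.37, edgeR FDR 7.92e-05). Sca-1+ MSCs were 6.40-fold below Itga8- BLCs (edgeR FDR 0.00046) and 5.30-fold below CD51+CD140a+ MSCs (edgeR FDR 0.000543). Itga8+ MSCs lay below Sca-1+ MSCs without overlap, which was not called (-0.78 ± 0.35, edgeR FDR 0.147).

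**Figure D4:**
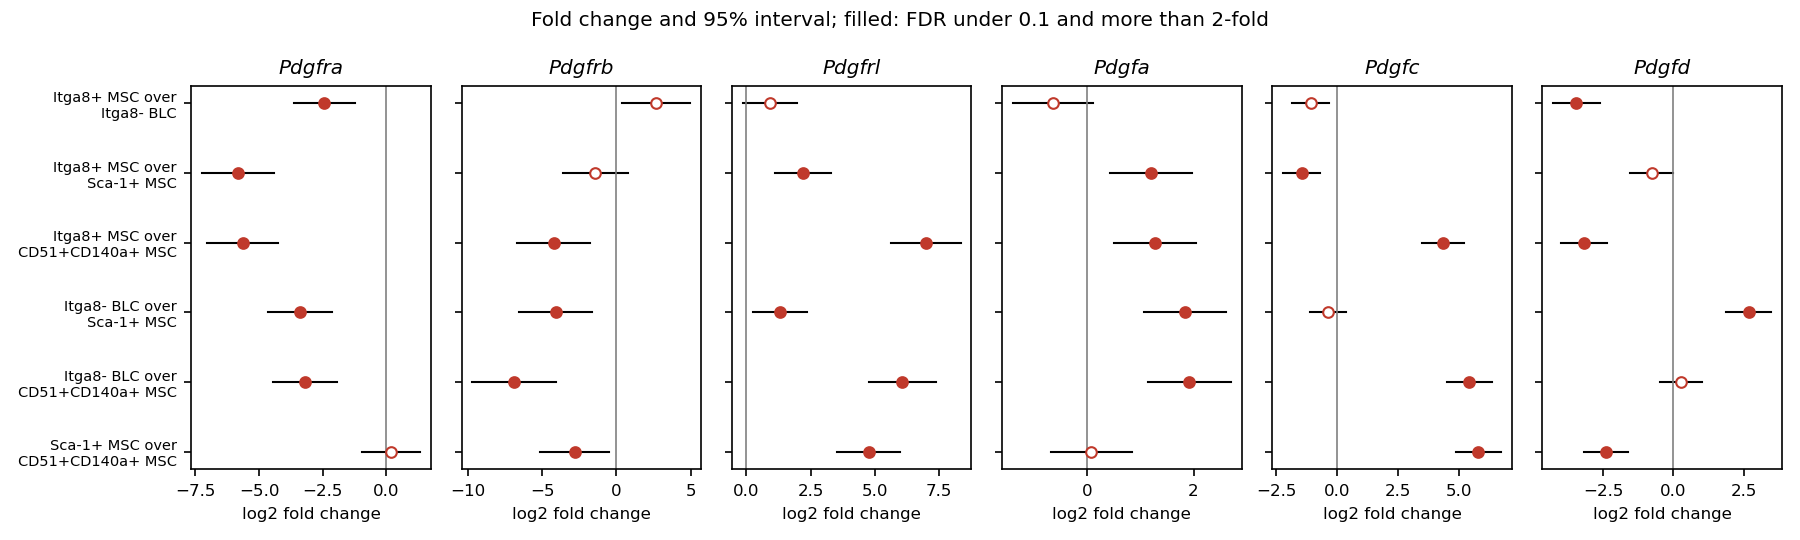
Log2 fold change with its 95% interval for 6 members in the 6 comparisons, first population over second, with filled points for calls. Pdgfb is left out because its fold changes against 0 counts are bounds only. Pdgfc lies above 4 in all 3 comparisons over CD51+CD140a+ MSCs, and Pdgfd lies below -3 for Itga8+ MSCs over Itga8- BLCs.

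Of the 7 members, 2 were called between Itga8+ MSCs and Itga8- BLCs, Pdgfra and Pdgfd, both lower in the Itga8+ fraction, where 3.82% of all tested genes were called. Between Itga8+ MSCs and Sca-1+ MSCs, Pdgfrl and Pdgfa were higher and Pdgfra and Pdgfc lower in the Itga8+ cells, 4 in all, against 21.7% of all genes. All 7 were called between Itga8+ and CD51+CD140a+ MSCs, among them Pdgfra, whose protein was a sort marker of the latter, with Pdgfrl, Pdgfa, Pdgfb and Pdgfc higher in Itga8+ MSCs and Pdgfrb and Pdgfd lower, against 35.6% of all genes. Between Itga8- BLCs and Sca-1+ MSCs 5 were called, against 26.4%, with Pdgfrl, Pdgfa and Pdgfd higher and both kinase receptors lower in the BLCs. Between Itga8- BLCs and CD51+CD140a+ MSCs 6 were called, against 35.3%, every member except Pdgfd, and the sort marker gene Pdgfra was again among them. The calls of both Alcam+ populations against CD51+CD140a+ MSCs include Pdgfb, which passed the filter only through Alcam+ libraries. Between Sca-1+ and CD51+CD140a+ MSCs 4 were called, against 20.5%, with Pdgfrl and Pdgfc higher and Pdgfrb and Pdgfd lower in Sca-1+ MSCs. The comparisons share populations and are not independent of each other. The members' median log2 fold change ran from -0.78 (Itga8+ over Sca-1+ MSCs) to 1.92 (Itga8- BLCs over CD51+CD140a+ MSCs), where the medians of all genes were 0.16 and 0.09.

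Of 7 listed genes of enzymes that release active PDGF, 0, 3, 4, 4, 4 and 4 were called in the 6 comparisons in the order given above, against 3.82%, 21.7%, 35.6%, 26.4%, 35.3% and 20.5% of all genes. Plat, which codes for the tissue plasminogen activator that cleaves PDGF-C, was at 170 to 325 CPM in Itga8+ MSCs, 86.2 to 161 CPM in Itga8- BLCs, 263 to 306 CPM in Sca-1+ cells and 1.63 to 3.55 CPM in the CD51+CD140a+ cells. It was thus low in the same population as its substrate Pdgfc, by 6.69 ± 0.46 (log2) against Sca-1+ MSCs (edgeR FDR 2.44e-06). Plau, the gene of urokinase, was at 7.45 to 14.3 CPM in Sca-1+ MSCs, 1.39 to 3.54 CPM in Itga8- BLCs and 0.116 to 1.14 CPM in Itga8+ MSCs. Replicate 3 of the Itga8+ MSCs held 2 counts of it, which is under the floor. No library of CD51+CD140a+ MSCs was above 0.0322 CPM, also under the floor. St14, the gene of matriptase, was at 2.23 to 9.01 CPM in Itga8+ MSCs and 2.88 to 9.81 CPM in Itga8- BLCs, and at most 1.07 CPM in the others. In CD51+CD140a+ MSCs Pdgfd was the main ligand transcript, and the genes of these 2 proteases known to activate PDGF-D were at 1.07 CPM or less.

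The convertase genes of the list did not share an order. Pcsk6 was at 206 to 298 CPM in Sca-1+ MSCs and 233 to 837 CPM in Itga8- BLCs, at 92.7, 13.7 and 180 CPM in Itga8+ MSCs, whose replicate 2 lay within the range of the lowest population, and at 9.81 to 13.7 CPM in CD51+CD140a+ MSCs (4.48 ± 0.81 for Sca-1+ over CD51+CD140a+ MSCs, edgeR FDR 0.00201). Pcsk5 was lowest in Sca-1+ MSCs, at 44.6 to 50.0 CPM, against 74.8 to 307 CPM elsewhere. Furin and Pcsk7 were called in none of the 6 comparisons.

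**Figure D5:**
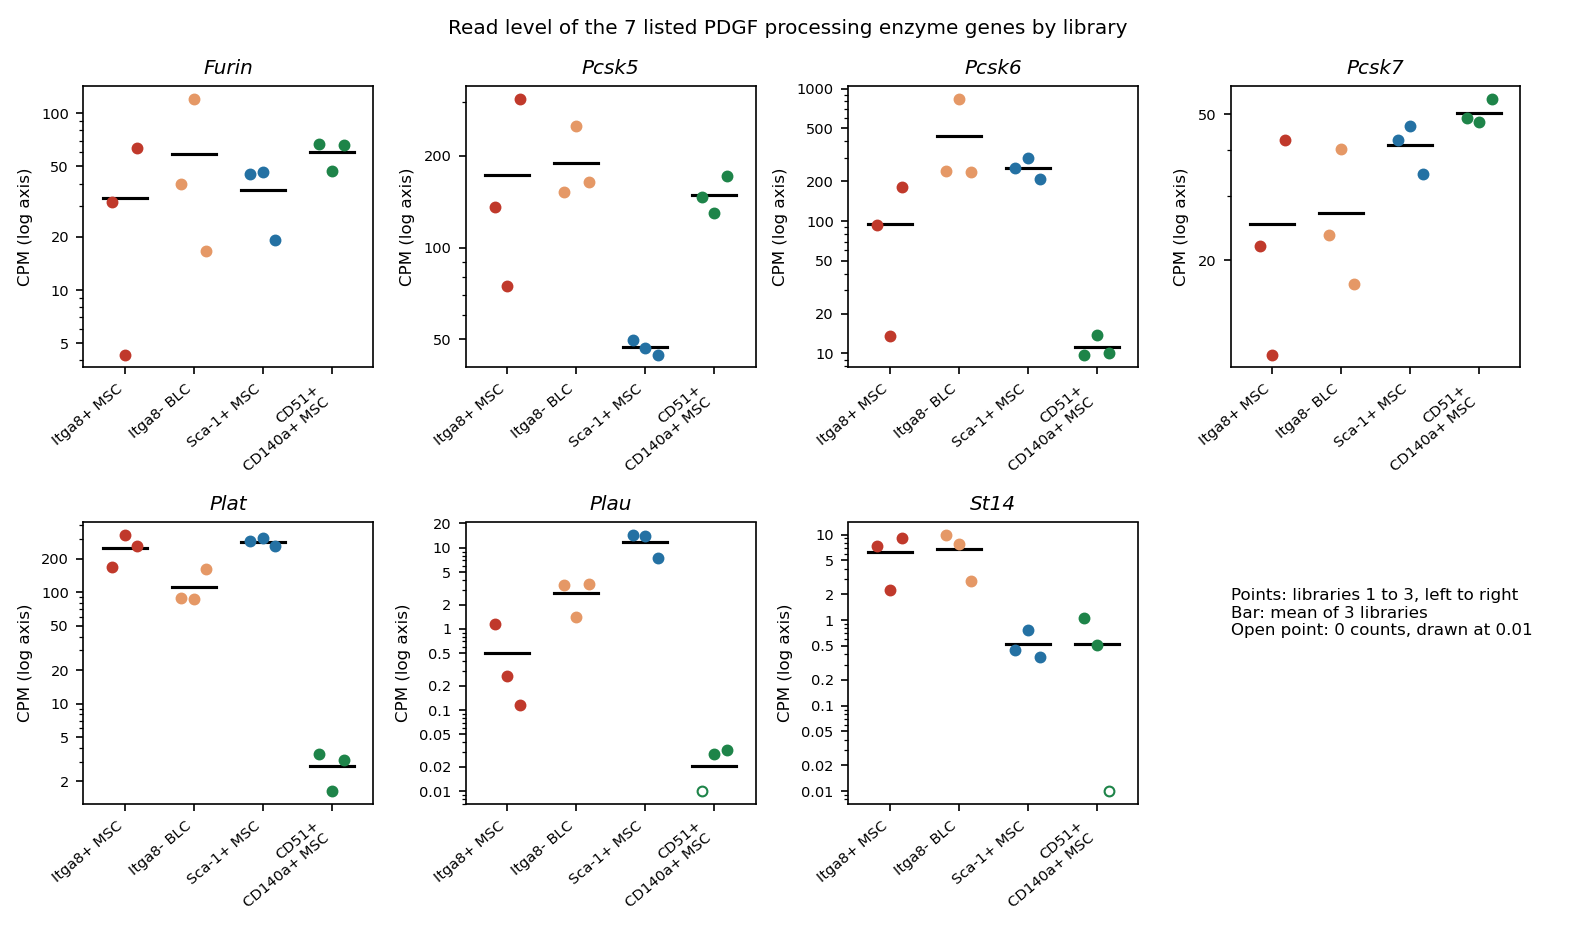
CPM (log axis, scale differing by panel) of the 7 listed processing enzyme genes, with libraries as points, means as bars and open points for 0 counts. Plat and Plau are lowest in CD51+CD140a+ MSCs in every library, Pcsk6 is lowest there by its mean, and Pcsk5 is lowest in Sca-1+ MSCs.

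Proteins that bind PDGFs or their receptors were counted as a list of 4, of which 0, 2, 3, 3, 3 and 3 were called in the 6 comparisons, against 3.82%, 21.7%, 35.6%, 26.4%, 35.3% and 20.5% of all genes. Nrp1, the gene of the co-receptor neuropilin-1, was at 852 to 1146 CPM in CD51+CD140a+ MSCs and at most 145 CPM elsewhere. Cav1, the gene of caveolin-1, was at 534 to 603 CPM in Sca-1+ MSCs, 65.5 to 112 CPM in the Alcam+ populations and at most 0.902 CPM in CD51+CD140a+ MSCs. Sparc, whose matrix protein binds PDGF-B chains, was at 26975 to 184260 CPM in the Alcam+ populations, 10561 to 13869 CPM in Sca-1+ cells and 3201 to 4298 CPM in the CD51+CD140a+ cells. The remaining gene, Lrp1, was called in none.

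Downstream of the receptors, 2, 3, 6, 1, 7 and 5 of the 26 listed signal relays were called in the 6 comparisons. These were 7.69%, 11.5%, 23.1%, 3.85%, 26.9% and 19.2% of the list, below the share of all genes in each comparison except the first. The relays called in at least 3 comparisons were Fyn, Pik3r1, Stat5a, Stat5b and Grb2. Fyn, a Src-family kinase, was at 8.42 to 18.6 CPM in CD51+CD140a+ MSCs and 38.1 to 305 CPM elsewhere. Pik3r1, a regulatory subunit of PI3-kinase, was at 134 to 161 CPM in CD51+CD140a+ MSCs and at most 70.9 CPM elsewhere. Stat5a and Stat5b, transcription factors, were at 82.5 to 124 CPM and 190 to 216 CPM there, and at most 50.1 and 120 CPM elsewhere. Grb2, an adaptor of the Ras route, was highest in Itga8- BLCs, at 46.2 to 66.8 CPM against at most 29.9 CPM.

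Of 13 negative regulators, 1, 4, 7, 5, 6 and 2 were called in the 6 comparisons (7.69%, 30.8%, 53.8%, 38.5%, 46.2% and 15.4% of the list, against 3.82%, 21.7%, 35.6%, 26.4%, 35.3% and 20.5% of all genes). Of the 7 between Itga8+ and CD51+CD140a+ MSCs, 6 were higher in the latter. Spry1 and Spry4, feedback inhibitors of receptor tyrosine kinase signalling, were at 946 to 1080 CPM and 161 to 183 CPM in CD51+CD140a+ MSCs. Elsewhere they were at most 180 and 28.2 CPM. Spry1 was also higher in Itga8+ MSCs than in Itga8- BLCs (48.0 to 180 CPM against 16.0 to 23.0 CPM, 2.45 ± 0.42, edgeR FDR 0.00794). Cblb, a ubiquitin ligase, also had its highest values in CD51+CD140a+ MSCs (64.1 to 72.8 CPM). Ptpn2, a phosphatase, had the other order, at 64.8 to 170 CPM in the Alcam+ populations against 21.6 to 37.5 CPM. Across the list, the median log2 fold change of Itga8+ over CD51+CD140a+ MSCs was -1.16, against 0.18 for all genes. Over the 62 genes of all lists, 6, 17, 28, 21, 29 and 22 were called, or 9.68%, 27.4%, 45.2%, 33.9%, 46.8% and 35.5%, beside those shares of all genes.

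Ligands of kindred families were listed beside the PDGFs. Csf1, Il34 and Kitl, ligands of other receptors of the same kinase class, were at 1769 to 2830, 301 to 394 and 1076 to 1291 CPM in CD51+CD140a+ MSCs, and at most 562, 26.8 and 14.3 CPM elsewhere. Flt3l, another such ligand, was at 1.64 to 3.71 CPM in Sca-1+ and CD51+CD140a+ MSCs and at most 0.719 CPM in the Alcam+ populations. Of the VEGF family, which shares the cystine-knot fold with PDGFs, Vegfa (532 to 661 CPM), Vegfc (180 to 279 CPM) and Pgf (141 to 199 CPM) were highest in CD51+CD140a+ MSCs. Vegfd was highest in Sca-1+ MSCs, at 5.24 to 8.80 CPM against at most 1.89 CPM.

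The genes with the pattern most like each member were sought by Pearson's r of log2(CPM + 1) over the 12 libraries, among 11012 other genes with a mean of at least 5 CPM (11013 for Pdgfb, itself under that mean). The points share 4 populations, and r is a description. Pdgfra was nearest to Slco3a1 (0.98), Epb41l3 (0.97) and Nav1 (0.96), and Pdgfrb to Acp2, Mpdz and Tapbp (all 0.99). Pdgfrl was nearest to Kif21a (0.99), Fam180a (0.98) and Hbegf (0.98), the last an epidermal growth factor receptor ligand at 843, 723, 196 and 3.87 CPM on average in the 4 populations. Pdgfa was nearest to Sars (0.96), Kcmf1 (0.96) and Tfg (0.96), and Pdgfd to Pltp (0.96), Vstm4 (0.95) and Cd1d1 (0.95). Pdgfc was nearest to Fam198b, Mamdc2 and Has1 (all 0.98), and Has1, a hyaluronan synthase, was at 2677 CPM in Sca-1+ cells and 1.70 CPM in the CD51+CD140a+ cells. Pdgfb, with few counts, was nearest to Eif2s3x (0.94), Lamc3 (0.92) and Pde3a (0.90). Between members, r was 0.73 for the 2 kinase receptors, 0.81 for Pdgfrl and Pdgfc and -0.86 for Pdgfrb and Pdgfa.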

How the data were processed

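The 12 libraries of 4 sorted populations were prepared by the authors with SMART-Seq v4 and Nextera XT kits from 2000 cells each. The deposited values are raw read counts per Ensembl gene, without normalization. The study's methods name TopHat and Bowtie2 with mm10 and iDEP. The submitters' processing notes list FastQC 0.11.7, Trimmomatic 0.38, HISAT2 2.1.0, SAMtools 1.9, featureCounts 1.6.3 and mm10, so the aligner is not settled. The strand setting and annotation release are not given in the sources used here. No removal of PCR copies is named in those sources, so floors cover counting error only.

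Samples were grouped and numbered by their labels. Counts of all 12 libraries were fitted in 1 quasi-likelihood model with TMM normalization (R 4.3.3, edgeR 4.0.16) over the 18648 genes that reached 0.5 CPM in 1 library or more. All 6 pairs of populations were compared, two-sided, with Benjamini-Hochberg adjustment over all genes of a comparison. CPM used TMM-scaled totals, and TPM the union exon length in GENCODE M21 on GRCm38, which lacks 259 of the 49585 identifiers (at most 0.0163% of counts). For the receptor ratio 0.5 was added to each count. Libraries of 1 population differed from each other by more than counting noise (chi-square per gene 19.6 to 592), so none was 1 set of reads deposited again; this does not tell repeat preparations from separate samples.

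Alternatives were DESeq2 1.42.0, scaling by RLE or by library totals, filters of 1 count in all or of 10 counts in 3 libraries, a fit of the 2 populations alone, a replicate block, a limit of 0.05 on the FDR, and the omission of each library. Removal of the trend with exon length, and leaving out Itga8+ replicate 2 and Itga8- replicate 3 together, were chosen after seeing the data. The members and lists were chosen with earlier results of these data known. Named are all members, the listed genes called in at least 3 comparisons or referred to by a count of at most 5, the sort marker genes, and the 3 genes most like each member. The values of 1 listed gene are not reported here.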

Additional observations from a re-analysis of the deposited data

How the results depend on the processing

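Of the 28 calls of members, 24 held under every alternative tried. The others were Pdgfra between Itga8+ MSCs and Itga8- BLCs, Pdgfa of Itga8+ against Sca-1+ MSCs, Pdgfrb between Sca-1+ and CD51+CD140a+ MSCs and Pdgfrl between Itga8- BLCs and Sca-1+ MSCs. For Itga8+ MSCs against Itga8- BLCs the count of 2 called members became 4 with DESeq2, which added Pdgfrb and Pdgfc, and 1 in a fit of the 2 populations alone. It was 1 to 2 with a library left out, being 1 without Itga8+ replicate 1 or Itga8- replicate 2. Directions turned only where no difference was called: Pdgfd of Itga8- BLCs over CD51+CD140a+ MSCs became -0.13 with library totals alone, -0.023 without Itga8- replicate 3 (range with a library left out -0.023 to 0.54) and -0.020 with the 2 length-biased libraries left out. Pdgfa of Sca-1+ over CD51+CD140a+ MSCs became -0.063 with library totals alone and -0.035 without Sca-1+ replicate 3 (range -0.035 to 0.15). Pdgfb of Itga8+ MSCs over Itga8- BLCs became 0.08, 0.13 and 0.94 without Itga8+ replicate 1, Itga8+ replicate 2 and Itga8- replicate 2 (range -1.85 to 0.94). The cause was not tested. Library totals alone moved the median of all genes' log2 fold changes to between -0.24 and 0.34. All genes called between Itga8+ MSCs and Itga8- BLCs were 712, against 1203 with DESeq2, 276 in the fit of that pair alone, 464 at an FDR under 0.05 and 433 to 886 with a library left out, the lowest without Itga8- replicate 3 and the highest without Itga8+ replicate 2. Between Itga8+ and Sca-1+ MSCs they were 4055, against 2386 to 2642 without a Sca-1+ library and up to 5878 without Itga8+ replicate 3. With both length-biased libraries left out the members called were 2, 4, 7, 4 and 6 in the 5 comparisons that use them.

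The replicate numbers did not pair the samples: 5 of 18 same-numbered pairs had a correlation of deviations over 0.1, with a range of -0.736 to 0.342. Higher values stood between the 2 Alcam+ populations under different numbers. They were 0.75 for Itga8+ replicate 2 with Itga8- replicate 3, and 0.78 for Itga8+ replicate 3 with Itga8- replicate 2. The other differently numbered pairs of these populations were at -0.461 to 0.245. A block by replicate number does not join those libraries, and whether they share a source was not tested. With the replicate number as a block, 1 member, Pdgfd, was called between Itga8+ MSCs and Itga8- BLCs (433 of all genes), Pdgfra losing its call, and Pdgfrb was not called between Sca-1+ and CD51+CD140a+ MSCs. The receptor ratio gave p = 0.00521 in an exact permutation within replicate numbers, and p = 0.00026 to 0.00331 with a library left out.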

Other observations

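Within each Alcam+ population, the library with the most Pdgfrb was the highest of the 3 in 38 of the 62 listed pathway genes (61.3% in either population), where it was the highest in 35.4% of all 18648 tested genes in Itga8+ MSCs and 39.4% in Itga8- BLCs. It was the lowest, ties not counted, in 12 and 10 listed genes (19.4% and 16.1%, against 32.5% and 34.1% of all genes). The libraries' trends with exon length, which differ, were not removed, so nothing particular to the pathway is read from these counts. These values were chosen after they were seen, and none was tested. Itga8+ replicate 3 (297 CPM of Pdgfrb) had 813 CPM of Lrp1, the endocytic co-receptor of PDGF receptor β, and 83.4 CPM of Plcg1, a phospholipase that binds the receptors, against at most 102 and 18.9 CPM in the other libraries of Itga8+ MSCs. Itga8- replicate 2 (41.4 CPM of Pdgfrb) had 555 CPM of Lrp1 and 59.6 CPM of Plcg1, against at most 98.1 and 19.1 CPM in the other libraries of Itga8- BLCs. The same 2 libraries held the most Pdgfb, with 33 and 47 counts. They were also the only libraries of their populations with a slope above 0 against exon length, at 0.118 and 0.0953 log2 units per doubling. These slopes are relative to the mean of the 12 libraries.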
